A study of Homo sapiens with 54 samples.

Results

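The genes described here are 7 inflammatory mediators, IL6, LIF, IL1B, CXCL8, CXCL1, CXCL2 and PTGS2, in H4 cells, a human line that the labels describe as glioneuronal. They were chosen by name, with earlier results of these data known. Each was read by the 1 probe set that carries its symbol, out of 18417 genes on the Affymetrix Human Gene 1.0 ST array (CXCL8 is IL8 in older annotation). Each culture received 1 of 9 small RNAs by transfection and was harvested 48 h later. The pair miR-16 and miR-195 and the pair miR-103 and miR-107 belong to the miR-15/107 group. The others were 2 altered forms of miR-107 (miR-107-mut1, miR-107-mut2), miR-320, miR-15b* (titled miR-15b and marked an anti-sense control in the labels), and a negative control miRNA from Ambion. For each RNA there were 3 biological replicates of total lysate RNA and 3 of RNA pulled down with the anti-Argonaute antibody 2A8 (IP), which gave 54 arrays in 18 groups. Every group is the same cell line given a synthetic RNA by transfection, so no untransfected cells were compared. The amount of each small RNA reached in the cells was not analysed here.

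IL6 is a secreted cytokine that signals through its own receptor and the shared subunit gp130, and LIF is a related cytokine that uses the same shared subunit. CXCL8, CXCL1 and CXCL2 are chemokines that draw neutrophils through the receptors CXCR1 and CXCR2, and their genes lie together on chromosome 4. IL1B is a cytokine that induces the others in many cell types, and PTGS2 (COX-2) is the inducible enzyme that commits arachidonic acid to prostaglandins. The messages of these genes carry AU-rich elements and are usually short-lived, and their promoters are textbook targets of NF-kB, AP-1 and C/EBP factors. Argonaute proteins hold microRNAs and the messages they pair with, so the IP measures messages found with Argonaute and the lysate measures their amount in the cell.

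The mature sequences of the transfected RNAs set the groups apart, and those found in RefSeq (GRCh38.p14) are printed 5′ to 3′ with the seed, bases 2 to 8, in capitals. They show which transfections share a seed.
miR-16 (hsa-miR-16-5p, MIR16-1, chr13:50049027-50049048, minus strand): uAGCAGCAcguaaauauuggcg
miR-195 (hsa-miR-195-5p, MIR195, chr17:7017667-7017687, minus strand): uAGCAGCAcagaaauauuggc
miR-103 (hsa-miR-103a-3p, MIR103A1, chr5:168560904-168560926, minus strand): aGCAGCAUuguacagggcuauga
miR-107 (hsa-miR-107, MIR107, chr10:89592756-89592778, minus strand): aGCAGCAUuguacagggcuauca
miR-15b* (hsa-miR-15b-3p, MIR15B, chr3:160404645-160404666, plus strand): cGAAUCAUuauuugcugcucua
The pairing of the label miR-103 with hsa-miR-103a-3p and of miR-15b* with hsa-miR-15b-3p follows current names and was not stated in the labels. The seed of miR-16 and miR-195 is AGCAGCA, and these RNAs differ at 2 of the positions they share, counted from the 5′ end (G10A and U11G, miR-16 first). The seed of miR-103 and miR-107 is GCAGCAU, 1 base along from the other, and these RNAs differ at 1 position (G22C, miR-103 first). The run AGCAGCA begins at base 2 of miR-16 and at base 1 of miR-107. The sequences of the altered molecules, the negative control and miR-320 were not used here.

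Array means were 7.11 to 7.17 in the lysates and 3.61 to 3.65 in the IP on the log2 scale, so levels are compared within a fraction. Arrays of a group correlated at a mean of 0.953 to 0.995 in the lysates and 0.850 to 0.976 in the IP across genes. The least like the other arrays of their fraction were replicate 2 of miR-15b* (mean r of 0.945), miR-16 (0.953) and miR-103 (0.967) among the lysates and replicate 1 of miR-15b* (0.851) in the IP. The miR-16 and miR-103 lysates had been named in earlier work on these data. Results are given without these arrays where that changes a call. Replicates with the same number share a code in the labels, whose meaning is not given there. A fit with the replicate number as a block lost none of the calls made on the 7 genes and added 12. The label glioneuronal was checked against fixed markers. VIM, an intermediate filament of glial and many other cells, lay at 12.34 to 12.84 in the 27 lysates. GFAP, the astrocyte filament, lay at 6.39 to 7.08 and S100B, another astrocyte marker, at 3.85 to 4.87. Of the other glial markers, SOX10 lay at the 45.1 percentile of genes, SLC1A3 at 42.3 and OLIG2 at 41.3. NES lay at 35, ALDH1L1 at 33.3 and AQP4 at 7.5. Of 9 neuronal markers, MAP2, a microtubule-binding protein, was the highest on average (7.32 to 8.96, the 56.4 percentile of genes). NCAM1 lay at the 50.4 percentile, SNAP25 at 48.9, RBFOX3 at 46.2 and NEFL at 32.2. SYP, a synaptic vesicle protein, lay at 29.8, the neurofilament NEFM at 16.6, STMN2 at 15.8 and DCX, a marker of young neurons, at 13.7. Of the markers of blood cells, another source of cytokines, PTPRC lay at 3.40 to 3.76, in the lowest 1.84% of genes. CD68, a lysosomal protein of macrophages that other cells also make, lay at 10.16 to 11.04, and TYROBP lay at the 61.2 percentile. CSF1R lay at 25.8, ITGAM at 23.6, CD14 at 22, HBB at 21.3, CD3E at 13.3 and AIF1 at 8.76. The summed linear level of the 9 haematopoietic markers on the array was 1823 to 2861 with miR-16 and 1798 to 2174 with miR-195, against 2128 to 2407 in control lysates, and with miR-320 it was lower (1852 to 2040).

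The sums of other marker lists also stood apart from the control in some lysates. The neuronal sum was 1055 to 1101 with miR-16, 996 to 1081 with miR-195, 1136 to 1181 with miR-103, 1110 to 1190 with miR-107 and 1158 to 1233 with miR-107-mut2, against 1238 to 1282 in control lysates. These 5 groups lay below the controls, while miR-107-mut1 lay above them at 1546 to 1690. The glial sum was above the controls with miR-103 (7392 to 7977), miR-107 (7503 to 8232) and miR-107-mut2 (7123 to 8006), against 6452 to 6776 in control lysates. The sum of the 6 endothelial and fibroblast markers overlapped the controls (1278 to 1965) with every RNA. Since linear levels were summed, the highest marker weighs most in a sum. In the glial list it was VIM (lysate mean 12.56, against 7.42 for SOX10, the next). In the haematopoietic list it was CD68 (10.46, against 8.36 for TYROBP), and in the endothelial and fibroblast list DCN (10.03, against 8.55 for COL1A1). A shift of those sums can therefore be a shift of 1 gene. The part of any marker list in the results was not tested.

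Of the 7 genes, 6 passed the filter that left 11050 genes tested. IL1B, with a mean of 4.02 over all arrays, lay below the filter at 5.26. Calls rest on limma with an adjusted p under 0.05 (Benjamini-Hochberg over all genes tested). In the lysate, 4 of the 6 were called higher with miR-16 (9.56% of all genes tested were) and 4 with miR-195 (6.82%). These were IL6, LIF, CXCL8 and PTGS2 in both. With miR-103, 3 were called higher (8.37%), namely IL6, LIF and PTGS2. With miR-107 (6.51%) and with miR-107-mut2 (6.23%), 3 were called higher, namely LIF, CXCL8 and PTGS2 in both. LIF and PTGS2 were called higher with miR-320 (1.46%), LIF alone with miR-15b* (3.5%) and none with miR-107-mut1 (3.33%). None was called lower with any RNA. The share of all genes called lower was 7.45% with miR-16, 7.22% with miR-195, 8.88% with miR-103, 8.35% with miR-107, 5.44% with miR-107-mut1, 7.58% with miR-107-mut2, 1.5% with miR-320 and 4.04% with miR-15b*. The median log2 change of the 6 genes ran from 0.26 with miR-15b* to 1.49 with miR-195, while the median of all genes lay between -0.0004 and 0.05. The 8 comparisons share the same 3 control arrays, so they are not independent of one another. The genes were also chosen with earlier results known, so the shares of all genes do not test these counts. The share of all genes with every array of a group above or below the control arrays was not counted. In whole-culture RNA, more cells with a message and more message per cell cannot be told apart.

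With miR-16 and miR-195, IL6 had the largest lysate change of the 6 tested genes. It lay at 9.39, 11.40 and 10.50 with miR-16 and at 10.10, 11.42 and 10.68 with miR-195, against 7.27, 6.53 and 6.04 in control lysates. All 6 arrays of these RNAs lay above every control array. The log2 change was 3.82 ± 0.75 (SE) with miR-16 (14.1-fold, adjusted p = 0.000849) and 4.12 ± 0.75 with miR-195 (17.4-fold, adjusted p = 0.000400, limma). Taken within each replicate number, the difference from control was 2.12, 4.87 and 4.46 with miR-16 and 2.83, 4.89 and 4.64 with miR-195, so replicate 1 gave the smallest difference with each RNA. Both calls still stood without the lysates that stood apart.

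IL6 lay at 7.91, 8.65 and 9.76 in miR-103 lysates, at 8.81, 9.31 and 7.43 in miR-107 lysates and from 7.59 (replicate 3) to 9.30 (replicate 1) in miR-107-mut2 lysates. All 9 arrays lay above the control arrays. The change was called with miR-103 (2.16 ± 0.75, adjusted p = 0.0492, limma), but that call was lost without any 1 of miR-103 replicates 2 and 3 and of the 3 control replicates (adjusted p = 0.0508 to 0.166). It was also lost with no filter on low values (adjusted p = 0.0534), without the 2 lysates named earlier (2.22, adjusted p = 0.0787) and without all 3 that stood apart (adjusted p = 0.0577). Against the mean of the control, miR-320 and miR-15b* groups it was lost too (1.65, adjusted p = 0.0704). The miR-320 group raises that mean by construction (IL6 mean of 8.33, against 6.61 in the control). The IL6 change was smaller with the next 2 RNAs. It was not called with miR-107 (1.90 ± 0.75, adjusted p = 0.0962) or with miR-107-mut2 (2.02 ± 0.75, adjusted p = 0.0778), although fits of only the arrays compared called both (adjusted p = 0.0203 with miR-107 and 0.0141 with miR-107-mut2), as did array quality weights. The miR-107-mut2 change was also called without its replicate 3 (2.54, adjusted p = 0.0495) or without the 3 lysates that stood apart (adjusted p = 0.0448). In miR-320 lysates IL6 lay at 10.21, 7.47 and 7.30, with replicate 1 far above the other two, and the change was not called (1.72 ± 0.75, adjusted p = 0.338). In miR-107-mut1 lysates it lay at 8.58, 6.48 and 6.43, and in miR-15b* lysates at 6.46, 6.94 and 5.86. Both groups overlapped the control arrays. In the order of group means, miR-195 came first, then miR-16, miR-103, miR-107-mut2, miR-107, miR-320, miR-107-mut1, control and miR-15b*, and no neighbours in this order differed by limma.

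**Figure D1:**
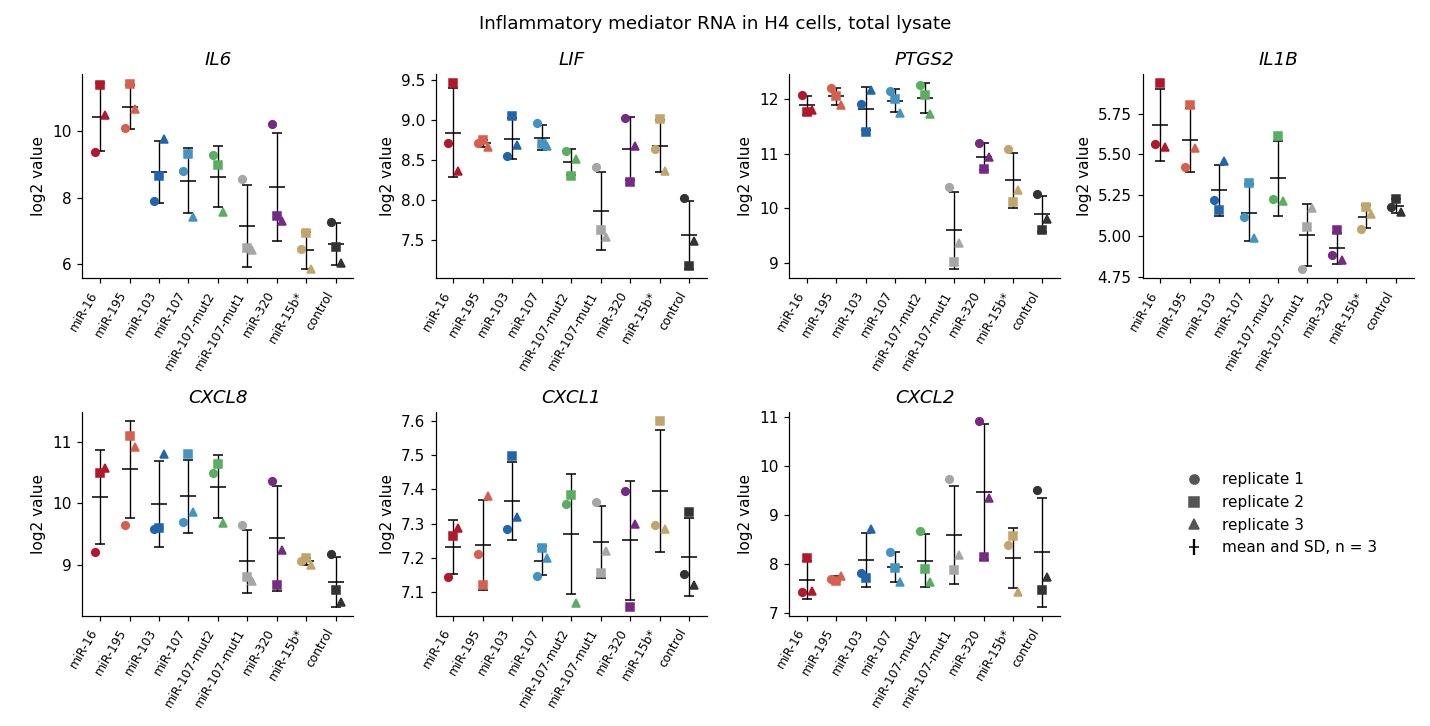
Log2 values of the 7 genes in the 27 lysate arrays by transfection, with the control at the right. Each symbol is 1 array, shaped by replicate number, and the bars give the mean and SD of 3. The miR-16 and miR-195 arrays of IL6 lie at 9.39 to 11.42 and the control arrays at 6.04 to 7.27, while CXCL1 stays between 7.06 and 7.60 on all arrays (each panel has its own axis).

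Since miR-16 with miR-195 and miR-103 with miR-107 have shifted seeds, the pairs were compared with each other without the control arrays. IL6 in the lysate was higher with miR-16 and miR-195 (9.39 to 11.42) than with miR-103 and miR-107 (7.43 to 9.76), a log2 difference of 1.94 ± 0.53 (adjusted p = 0.0199, limma). The ranges overlapped in the stretch from 9.39 to 9.76. The call was lost without miR-103 replicate 1 (1.72, adjusted p = 0.0633), miR-107 replicate 3 (1.66, adjusted p = 0.0706), miR-16 replicate 2 (1.69, adjusted p = 0.0549) or miR-195 replicate 2 (1.76, adjusted p = 0.0608), and without the miR-16 and miR-103 lysates that stood apart (1.66, adjusted p = 0.0849, and 0.0595 with the miR-15b* lysate left out too). In the IP the difference was 2.43 ± 0.45 (adjusted p = 0.00767, limma), with the 6 arrays of miR-16 and miR-195 at 6.94 to 8.62 and the 6 of miR-103 and miR-107 at 4.70 to 6.65. These did not overlap, and the call stood without any 1 of the 12 arrays. IL6 was the only one of the 6 genes called in this contrast in either fraction (6.47% of genes tested were called higher in the lysate and 0.172% in the IP). For PTGS2 the lysate difference was 0.07, within 2 SE of -0.33 to 0.48, and for LIF it was 0.00, within -0.38 to 0.38. Between miR-16 and miR-195 limma called 0 genes (0%) in the lysate and 0 in the IP, against 170 and 125 at an unadjusted p under 0.05. Between miR-103 and miR-107 it likewise called 0 in each, against 382 and 364. The exceptions among the alternatives were array quality weights, with 7379 genes (miR-16 against miR-195) and 51 genes (miR-103 against miR-107) in the lysate, and cyclic loess, with 1 gene in the IP for miR-16 against miR-195. In the weighted lysate fit, which stopped before convergence, miR-16 replicate 1 had a weight of 120, and IL6 was called lower with miR-16 than with miR-195 (-1.33, adjusted p = 0.000547).

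LIF was called higher in the lysate with 7 of the 8 RNAs, with log2 changes of 0.91 ± 0.27 (miR-107-mut2, adjusted p = 0.0245) to 1.28 ± 0.27 (miR-16, adjusted p = 0.00171, limma). It lay at 8.71, 9.46 and 8.36 with miR-16, at 8.71, 8.75 and 8.66 with miR-195, and at 8.64, 9.01 and 8.37 with miR-15b*, against 8.02, 7.18 and 7.49 in control lysates. The 21 arrays of the 7 RNAs all lay above the 3 control arrays. With miR-107-mut1 LIF lay at 8.42, 7.62 and 7.54 and overlapped the controls (0.30 ± 0.27, adjusted p = 0.676). The change was also called with miR-15b* (1.11 ± 0.27, adjusted p = 0.0115) and miR-320 (1.08 ± 0.27, adjusted p = 0.0274), which lie outside the miR-15/107 group. Against the mean of the control, miR-320 and miR-15b* groups the other 5 changes were 0.19 to 0.55 and not called (adjusted p = 0.0901 to 0.631), a loss built into that mean, since LIF is high in 2 of its 3 groups. The miR-15b* call was lost without replicate 2 of miR-15b*, the lysate least like the rest (0.94, adjusted p = 0.0668). The calls with miR-107-mut2, miR-15b* and miR-320 were also lost without other single arrays, control replicates 2 and 3 among them (adjusted p up to 0.195). In fits of only the arrays compared, those with miR-16 (adjusted p = 0.0626), miR-15b* (0.124) and miR-320 (0.0566) were lost.

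IL1B lay near the low end of the array's range and was fitted only with no filter on low values. It lay at 5.56, 5.93 and 5.54 with miR-16 and at 5.42, 5.80 and 5.54 with miR-195, against 5.18, 5.23 and 5.14 in control lysates. Each of the 6 arrays was above the control arrays. The change was 0.50 ± 0.14 with miR-16 (adjusted p = 0.0166, limma with no filter) and 0.41 ± 0.14 with miR-195 (adjusted p = 0.0636). The difference between miR-16 with miR-195 and miR-103 with miR-107 was 0.42 ± 0.10 (adjusted p = 0.00713). The lysate changes with the other 6 RNAs were -0.26 to 0.17, with adjusted p of 0.456 or more. In the IP IL1B was called with no RNA. Its largest IP change was with miR-107 (0.62 ± 0.18, adjusted p = 0.0776, limma with no filter). Those arrays lay at 3.13 to 3.32, against 2.51 to 2.63 in the control IP. Whether IL1B was above background was not analysed here.

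PTGS2 lysates fell into sets of transfections with no overlap. These sets were drawn from the same PTGS2 values, and the share of all genes with such a split was not counted. The 15 lysates of miR-16, miR-195, miR-103, miR-107 and miR-107-mut2 lay at 11.40 to 12.27, and the 12 lysates of miR-320, miR-15b*, miR-107-mut1 and the control at 9.02 to 11.20. PTGS2 lay at 12.09, 11.77 and 11.81 with miR-16, at 12.21, 12.07 and 11.90 with miR-195, and at 12.16, 12.01 and 11.74 with miR-107, against 10.26, 9.60 and 9.81 in control lysates. The log2 change was 1.94 ± 0.28 (miR-103, 3.84-fold, adjusted p = 3.56e-05) to 2.17 ± 0.28 (miR-195, 4.50-fold, adjusted p = 1.12e-05, limma) among these 5 RNAs, and none of the 5 calls was lost under any alternative or without any array.

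Unlike IL6, PTGS2 was not called between miR-16 with miR-195 and miR-103 with miR-107. With miR-320 PTGS2 lay at 11.20, 10.71 and 10.94, above the controls, and was called (1.06 ± 0.28, adjusted p = 0.0446), but not without any 1 of the 3 miR-320 replicates or of control replicates 2 and 3 (adjusted p = 0.0655 to 0.231), nor with no filter on low values (adjusted p = 0.0554). With miR-15b* it lay at 11.08, 10.11 and 10.34 and was not called (0.62 ± 0.28, adjusted p = 0.191, and adjusted p = 0.0457 with the replicate block). With miR-107-mut1 it lay at 10.39, 9.02 and 9.37 (-0.30 ± 0.28, adjusted p = 0.696). Among neighbours in the order of the 9 groups, only miR-103 and miR-320 differed (adjusted p = 0.0468).

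CXCL8 lay at 9.21, 10.50 and 10.58 with miR-16, at 9.65, 11.10 and 10.92 with miR-195, and at 10.49, 10.65 and 9.68 with miR-107-mut2, against 9.18, 8.59 and 8.40 in control lysates. All these arrays lay above the controls, although miR-16 replicate 1 did so by little. The change was 1.37 ± 0.47 with miR-16 (adjusted p = 0.0471), 1.84 ± 0.47 with miR-195 (3.57-fold, adjusted p = 0.00882), 1.39 ± 0.47 with miR-107 (adjusted p = 0.0480) and 1.55 ± 0.47 with miR-107-mut2 (adjusted p = 0.0287, limma). The miR-195 call was lost without miR-195 replicate 2 (1.56, adjusted p = 0.0663). The other 3 calls were each lost without replicate 2 or 3 of the control and without 2 of the 3 replicates of their own group, taken 1 at a time (adjusted p = 0.0736 to 0.248). With miR-103 the 3 arrays also lay above the controls, at 9.58, 9.60 and 10.81, without a call (1.27 ± 0.47, adjusted p = 0.0644). The miR-16 call was lost in most of the other alternatives too: without the 2 lysates named earlier (1.18, adjusted p = 0.166) or all 3 that stood apart (adjusted p = 0.133), with no filter on low values (adjusted p = 0.0560), after cyclic loess (1.36, with an adjusted p just over the threshold), with only the arrays compared (adjusted p = 0.0899) and against the mean of 3 controls (1.03, adjusted p = 0.0670). The miR-107 call was lost with no filter (adjusted p = 0.0574) and against the mean of 3 controls (1.05, adjusted p = 0.0677). That mean lowers the CXCL8 changes by construction, since miR-320 (mean 9.43) and miR-15b* (9.05) lay above the control (8.72).

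CXCL1 and CXCL2, the other neutrophil chemokines, were called against the control in no lysate comparison of the main fit. Between 2 RNAs, CXCL2 was lower with miR-16 than with miR-320 (-1.805 ± 0.58, adjusted p = 0.039, limma). The fit with array quality weights, which stopped before convergence, called CXCL2 with miR-320 (1.45, adjusted p = 0.00871) and CXCL1 with miR-195 (0.19, adjusted p = 0.0157). CXCL1 lay at 7.06 to 7.60 on all 27 lysate arrays, with log2 changes of -0.01 ± 0.11 to 0.19 ± 0.11, so changes beyond about 0.42 in size lay outside 2 SE of every estimate. CXCL2 lay at 7.44, 8.13 and 7.46 with miR-16 and at 10.93, 8.15 and 9.36 with miR-320, against 9.52, 7.47 and 7.73 in control lysates. Its spread within groups was wide, with replicate 1 highest in the control, miR-107-mut1 and miR-320 lysates, and the miR-320 change was not called (1.24 ± 0.58, adjusted p = 0.412). Taken within each replicate number, the CXCL2 difference of miR-320 from control was 1.41, 0.68 and 1.62. The CXCL1 and CXCL2 messages are closely alike, and signal shared between their probe sets was not tested.

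Promoters are shown because IL6, CXCL8 and PTGS2 were called higher together with miR-16 and miR-195 while CXCL1 was not. The 250 bases before the RefSeq start (GRCh38.p14) are printed 5′ to 3′ on the gene's strand, with matches in capitals. RefSeq promoters were at hand for 6 of the 7 genes. Both strands were searched for each motif. The kB-type motif was spelled GGANTTTCC and the C/EBP-type motif TTNNGNAA, where N is any base. The CRE-type motif was spelled TGACGTCA. For AP-1 the letters searched were TGANTCA, as in the usual phorbol ester response element. For the TATA box they were TATAAA. The only matches that overlapped were the 2 strands of a C/EBP-type site. IL6 is at chr7:22726950-22727199 on the plus strand, CXCL8 at chr4:73740319-73740568 on the plus strand, PTGS2 at chr1:186680424-186680673 on the minus strand and CXCL1 at chr4:73869143-73869392 on the plus strand.
IL6: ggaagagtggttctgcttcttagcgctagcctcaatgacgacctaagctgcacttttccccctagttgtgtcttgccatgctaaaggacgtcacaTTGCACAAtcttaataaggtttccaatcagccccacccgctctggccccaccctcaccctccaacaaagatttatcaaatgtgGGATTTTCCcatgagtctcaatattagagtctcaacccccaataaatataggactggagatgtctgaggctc
CXCL8: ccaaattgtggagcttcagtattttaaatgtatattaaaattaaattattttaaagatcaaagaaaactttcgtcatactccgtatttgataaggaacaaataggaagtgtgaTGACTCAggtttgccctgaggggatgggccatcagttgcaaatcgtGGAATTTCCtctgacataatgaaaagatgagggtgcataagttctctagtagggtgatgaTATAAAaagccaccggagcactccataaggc
PTGS2: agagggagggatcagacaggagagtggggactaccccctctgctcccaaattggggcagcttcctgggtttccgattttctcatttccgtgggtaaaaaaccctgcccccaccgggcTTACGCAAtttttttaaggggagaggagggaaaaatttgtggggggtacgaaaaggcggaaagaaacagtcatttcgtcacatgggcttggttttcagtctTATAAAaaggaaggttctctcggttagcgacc
CXCL1: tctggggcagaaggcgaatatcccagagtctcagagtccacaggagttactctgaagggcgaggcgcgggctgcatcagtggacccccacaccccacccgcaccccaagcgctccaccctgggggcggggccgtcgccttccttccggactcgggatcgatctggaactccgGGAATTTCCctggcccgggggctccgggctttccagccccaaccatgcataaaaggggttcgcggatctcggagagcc
A kB-type match was found 72 to 64 bases before the start of IL6, 91 to 83 before CXCL8, 78 to 70 before CXCL1 and 77 to 69 before CXCL2, and in 1.45% of 35116 promoters. None of this spelling was found in the windows of PTGS2 and IL1B. For every motif only the spelling given was searched, so sites spelled otherwise were missed. The lack of a match is not the lack of a site. A C/EBP-type match was found in IL6, CXCL2, IL1B and PTGS2, and in 33.2% of all promoters. An AP-1-type match was found in CXCL8 alone of the 6 (6.57% of all), a CRE-type match in none (1.65% of all), and a TATA-type match in CXCL8 and PTGS2 (10.7% of all). Of the printed genes called higher in the lysate with miR-16 and miR-195, IL6 and CXCL8 had the kB-type match and PTGS2 had none. CXCL1 and CXCL2, not called in those lysates, had it too. CXCL2 was called in the miR-320 IP, as given below. The part of any motif in these changes was not tested.

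In the IP, which holds messages found with Argonaute, miR-320 gave the most calls. With it, 3 of the 6 genes were called higher (2.12% of genes tested were), namely IL6, CXCL2 and PTGS2. IL6 alone was called with miR-16 (0.136% of genes called higher) and with miR-195 (0.0543%). None of the 6 was called in either direction with miR-103 (2.03% of genes were), miR-107 (3.83%), miR-107-mut1 (0.742%), miR-107-mut2 (0.344%) or miR-15b* (0.217%). The miR-15b* share rests on 24 genes called, against 1407 without miR-15b* IP replicate 3, 8 without replicate 1, which stood apart, and 0 with only the arrays compared.

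IL6 lay at 10.92, 8.03 and 8.14 in the miR-320 IP, at 6.94, 8.62 and 7.94 in the miR-16 IP and at 7.25, 8.45 and 8.28 in the miR-195 IP, against 5.97, 4.89 and 4.59 in the control IP. These 9 arrays all lay above the control arrays, and miR-320 replicate 1 was the highest. The change was 3.88 ± 0.63 with miR-320 (14.7-fold, adjusted p = 0.000448, limma), and the call stood in every alternative run and without any array. Its size rested on miR-320 replicate 1, without which it was 2.93, and leaving out single arrays it ranged up to 4.37. It was 2.68 ± 0.63 with miR-16 (6.42-fold, adjusted p = 0.0365) and 2.84 ± 0.63 with miR-195 (7.18-fold, adjusted p = 0.0371). Both of these calls were lost without replicate 2 or 3 of their own group or of the control, taken 1 at a time (2.29 to 2.63 with miR-16, adjusted p = 0.0807 to 0.242, and 2.57 to 2.71 with miR-195, adjusted p = 0.0838 to 0.259).

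In the miR-103 IP IL6 lay at 5.72, 5.30 and 6.65 and in the miR-107 IP at 5.42, 5.09 and 4.70, and both overlapped the controls. The changes were 0.74 ± 0.63 (adjusted p = 0.554) and -0.08 ± 0.63 (adjusted p = 0.949). In the miR-107-mut2 IP IL6 lay at 7.59, 6.29 and 5.75 (1.39 ± 0.63, adjusted p = 0.724). The miR-15b* IP had the lowest values, at 4.29, 4.54 and 4.03, all below the controls, without a call (-0.86 ± 0.63, adjusted p = 0.558).

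CXCL2 in the miR-320 IP lay at 9.69, 7.45 and 8.37, against 6.18, 5.39 and 5.60 in the control IP, a log2 change of 2.78 ± 0.41 (6.86-fold, adjusted p = 0.000154, limma), or 2.19 without miR-320 replicate 1. The 3 miR-320 arrays lay above all 24 other IP arrays, which reached 6.59. The miR-320 group differed from its neighbour in the order, miR-107-mut1 (adjusted p = 0.000359). CXCL2 lay at 4.88, 4.96 and 4.99 with miR-16, at 4.62, 4.54 and 4.79 with miR-195 and at 4.78, 4.65 and 5.01 with miR-107. All 9 of these lay below the control arrays, without calls against the control alone (-0.78 to -1.08, adjusted p = 0.187 to 0.432), except with miR-107 when only the arrays compared were fitted (adjusted p = 0.0376). Against the mean of the control, miR-320 and miR-15b* groups, of which the miR-320 group is the high one, CXCL2 was called lower with miR-16, miR-195, miR-103, miR-107 and miR-107-mut2 (-1.41 to -2.04).

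PTGS2 lay at 6.23, 6.47 and 6.29 in the miR-320 IP, against 4.79, 4.71 and 4.88 in the control IP (1.54 ± 0.23, 2.90-fold, adjusted p = 0.000217, limma). These 3 arrays lay above all 24 others, which reached 5.90, although in the lysate miR-320 was below the miR-15/107 group. With miR-16 PTGS2 lay at 5.73, 5.82 and 5.54 in the IP (0.90 ± 0.23, adjusted p = 0.0565, and adjusted p = 0.0153 with the replicate block). With miR-195, miR-103, miR-107 and miR-107-mut2 it lay at 5.10 to 5.90 on the 12 arrays, all above the control arrays (log2 changes of 0.51 to 0.73, adjusted p = 0.113 to 0.293). With the replicate block the miR-107 change was called (adjusted p = 0.0455). Without the miR-15b* IP array that stood apart, the miR-16 (adjusted p = 0.0140) and miR-107 (adjusted p = 0.0459) changes were called. LIF, CXCL8 and CXCL1 were called with no RNA in the IP. LIF lay at 3.84, 3.53 and 4.20 with miR-107, against 5.24, 4.87 and 5.33 in the control IP, a change of -1.29 ± 0.53 (adjusted p = 0.153). That change was called with the replicate block (adjusted p = 0.0214), with only the arrays compared (adjusted p = 0.00917), with array quality weights (adjusted p = 0.0462) and against the mean of 3 controls (-1.43, adjusted p = 0.0424).

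**Figure D2:**
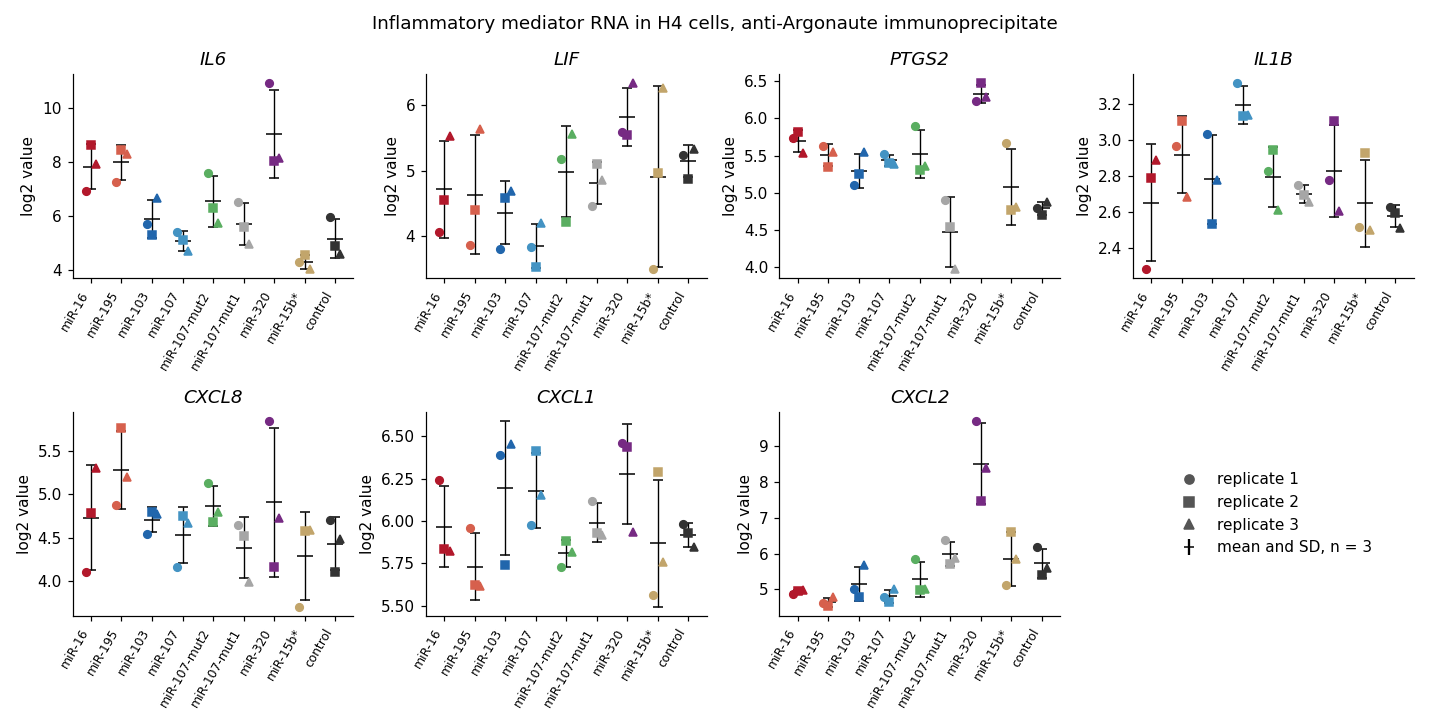
Log2 values of the 7 genes in the 27 anti-Argonaute IP arrays by transfection, with the control at the right. Symbols are single arrays by replicate number and bars are the mean and SD of 3. The miR-320 arrays are the highest for CXCL2 (7.45 to 9.69) and PTGS2 (6.23 to 6.47), and the miR-16 and miR-195 arrays of IL6 (6.94 to 8.62) lie above those of miR-103 and miR-107 (4.70 to 6.65).

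The change in the IP was then set against the change in the lysate with an interaction term over all 54 arrays. For PTGS2 the change in the IP was smaller than that in the lysate with miR-195 (0.71 in the IP and 2.17 in the lysate, an interaction of -1.46 ± 0.37, adjusted p = 0.0355), miR-103 (0.51 in the IP and 1.94 in the lysate, -1.44 ± 0.37, adjusted p = 0.0222) and miR-107 (0.64 in the IP and 2.08 in the lysate, -1.44 ± 0.37, adjusted p = 0.0150, limma). LIF lay at 3.53 to 4.20 in the miR-107 IP, near the IP array means of 3.61 to 3.65, and its change there was not called. The LIF estimates ran in opposite directions with miR-107 (-1.29 in the IP and 1.22 in the lysate). Their interaction was called (-2.50 ± 0.61, adjusted p = 0.00849, limma). Thus 2 of the 6 genes were called lower in the miR-107 interaction (4.04% of genes tested were), 1 with miR-103 (1.69%) and 1 with miR-195 (0.787%). The 3 PTGS2 interactions were lost after cyclic loess over the 54 arrays (-0.69 to -1.03, adjusted p = 0.548 to 0.614), which brings both fractions to one scale, while that of LIF stood (-2.30, adjusted p = 0.00347). None of the 6 was called in the interaction with miR-16 (1.58% of genes in either direction), miR-107-mut1 (1.66%), miR-107-mut2 (0.724%), miR-320 (2.28%) or miR-15b* (0.498%). The miR-15b* count of 55 genes was 1824 without miR-15b* IP replicate 3, and LIF was then called (-2.02, adjusted p = 0.0149). LIF was also called with miR-195 without miR-195 IP replicate 3 (-2.15, adjusted p = 0.0480) and with miR-103 after cyclic loess (-1.91, adjusted p = 0.0251). With miR-320 IL6 changed by 3.88 in the IP, and its lysate estimate was 1.72, an interaction of 2.16 ± 1.00 that was not called (adjusted p = 0.631).

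Pairing the IP with the lysate of the same replicate number, as the replicate block, added 7 interaction calls. With miR-320 they were IL6 (2.16, adjusted p = 0.000436) and CXCL2 (1.54, adjusted p = 0.0270). With miR-107 they were IL6 (-1.98, adjusted p = 0.00163) and CXCL8 (-1.30, adjusted p = 0.0280). The others were IL6 with miR-103 (-1.42, adjusted p = 0.0274) and PTGS2 with miR-16 (-1.10, adjusted p = 0.0367) and with miR-107-mut2 (-1.41, adjusted p = 0.00876).

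**Figure D3:**
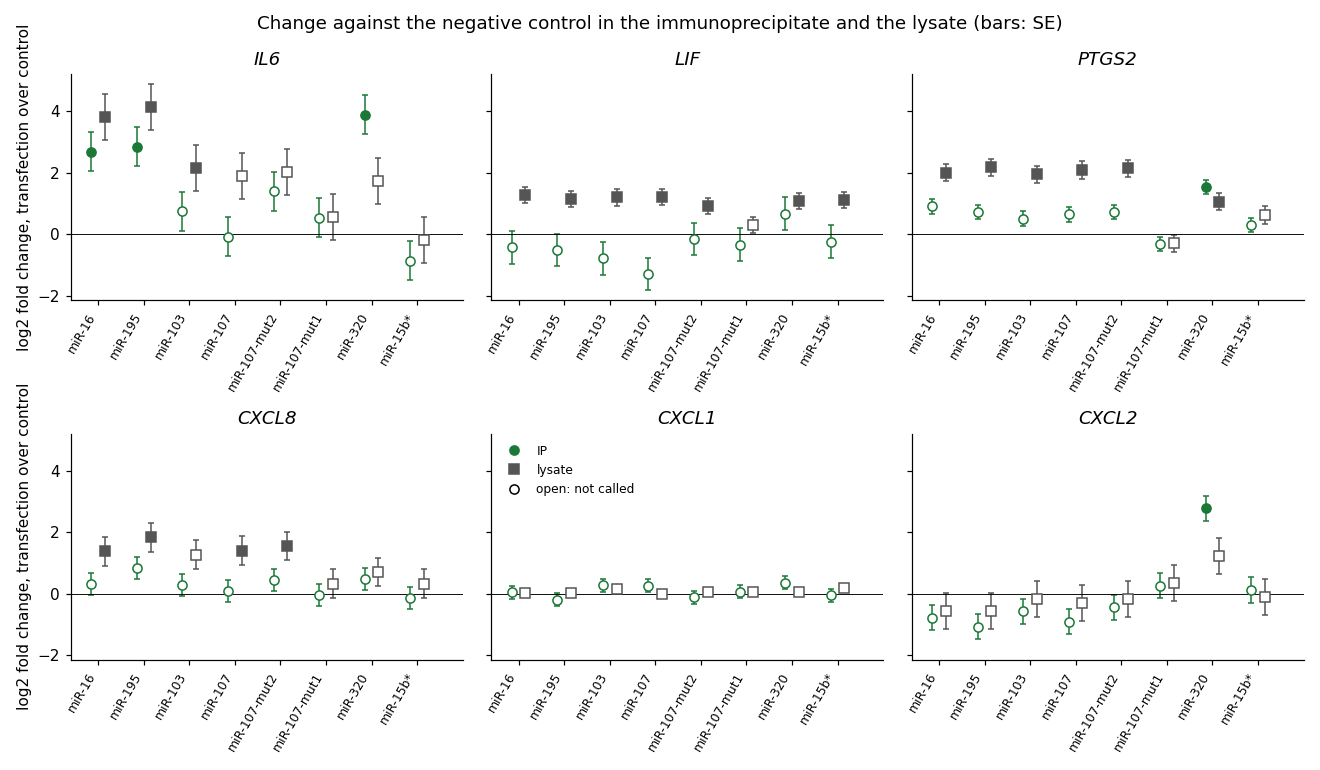
Log2 fold change of each RNA over the negative control for 6 genes, in the IP (circles) and the lysate (squares), with bars of 1 SE from limma. Filled symbols were called at an adjusted p under 0.05. For PTGS2 the IP changes of 0.51 to 0.90 with the miR-15/107 group lie below the lysate changes of 1.94 to 2.17, while for IL6 and CXCL2 with miR-320 the IP changes of 3.88 and 2.78 lie above those in the lysate.

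The control arrays give the background of these comparisons. In the control IP all 6 genes were called lower than in the control lysate, as were 99.9% of genes tested, by a log2 difference of -1.28 ± 0.17 for CXCL1, -1.46 ± 0.71 for IL6, -2.42 ± 0.43 for LIF, -2.52 ± 0.51 for CXCL2, -4.29 ± 0.43 for CXCL8 and -5.10 ± 0.26 for PTGS2. The IL6 call was lost without control IP replicate 2 or 3 or control lysate replicate 1 or 2, taken 1 at a time (-1.13 to -1.50, adjusted p = 0.0685 to 0.161). The CXCL2 difference was -1.88 without control lysate replicate 1. The median of all genes was -4.20, which carries the offset between fractions. Cyclic loess removes most of that offset and so raises these differences by construction. After it, IL6 (2.83 ± 0.73), CXCL1 (2.94 ± 0.20), CXCL2 (1.76 ± 0.50) and LIF (1.81 ± 0.37) were higher in the control IP. PTGS2 (-0.78, adjusted p = 0.0648) and CXCL8 (0.00, adjusted p = 0.996) were not called. A direction between the fractions therefore holds only for the scale it is given on.

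miR-107 was also compared with its altered forms. PTGS2 was higher with miR-107 than with miR-107-mut1 in the lysate (12.16, 12.01 and 11.74, against 10.39, 9.02 and 9.37), by 2.38 ± 0.28 (5.21-fold, adjusted p = 2.90e-06, limma), and in the IP by 0.96 ± 0.23 (adjusted p = 0.0185). The IP call was lost without miR-107 replicate 1 or 2 or miR-107-mut1 replicate 3 (0.71 to 0.98, adjusted p = 0.0556 to 0.191) and with only the arrays compared (adjusted p = 0.0721). LIF was higher with miR-107 in the lysate by 0.92 ± 0.27 (adjusted p = 0.0233), a call lost without miR-107 replicate 1 or 2 or miR-107-mut1 replicate 2 or 3 (0.76 to 0.96, adjusted p = 0.0532 to 0.139). CXCL2 in the IP was lower by a log2 difference of -1.17 without a call (adjusted p = 0.0929, and adjusted p = 0.0377 with the replicate block). Thus 2 of the 6 genes were called higher in the lysate (6.96% of genes tested) and 1 in the IP (0.19%). IL6 (1.35 ± 0.75, adjusted p = 0.304) and CXCL8 (1.06 ± 0.47, adjusted p = 0.163) were not called in the lysate, although CXCL8 was with only the arrays compared (adjusted p = 0.0447). Between miR-107 and miR-107-mut2 none of the 6 was called in the lysate (0.0814% of genes) or the IP (0.0362%). For PTGS2 the lysate difference was -0.05, within 2 SE of -0.62 to 0.52. For IL6 it was -0.11, within -1.60 to 1.38, so sizable differences in IL6 were not excluded.

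Replicates of a group varied together across several of the genes. Across the 27 lysate arrays, deviations of IL6 from its group mean correlated with those of CXCL8 (r = 0.85), CXCL2 (0.79), LIF (0.60), CXCL1 (0.50) and PTGS2 (0.49), given as a description since these values share arrays and replicate numbers. In the IP the correlation of IL6 was 0.68 with CXCL8, 0.73 with CXCL2 and 0.00 with LIF. Deviations in the lysate and in the IP of the same transfection and number correlated at 0.89 for IL6, 0.78 for CXCL2, 0.71 for CXCL8 and 0.60 for PTGS2, against -0.13 for LIF and 0.02 for CXCL1. PTGS2 was above its group mean in replicate 1 of all 9 lysate groups. IL6 was so in 6 of 9 and was highest in replicate 2 with miR-16 and miR-195. In the IP, LIF was above its group mean in replicate 3 of all 9 groups.

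**Figure D4:**
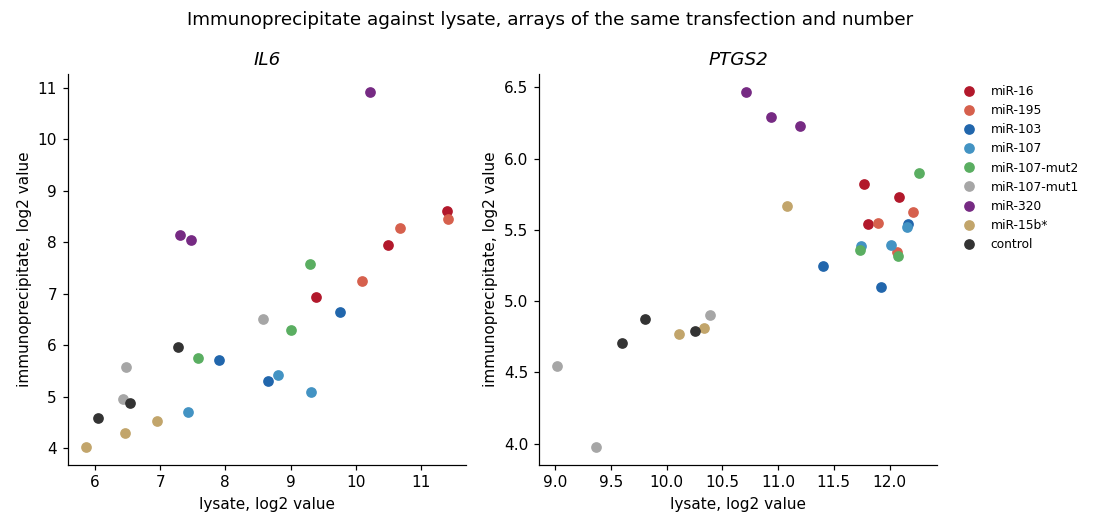
IP log2 value against lysate log2 value of IL6 and PTGS2, 1 point for each transfection and replicate number, coloured by transfection. For IL6 the miR-320 points, at 8.03 to 10.92 in the IP, lie above the other RNAs at like lysate values of 7.30 to 10.21, and for PTGS2 the miR-320 points hold the highest IP values, 6.23 to 6.47, at lysate values of 10.71 to 11.20.

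The genes whose pattern was most like that of IL6 were taken as the 10 with the highest Pearson correlation over the 9 lysate group means. They were PIK3CD (r = 0.96), a catalytic subunit of a lipid kinase, PDE9A (0.96), a phosphodiesterase, YPEL2 (0.96), WWC1 (0.96), ACOT9 (0.95), NPC1 (0.95), which exports cholesterol from lysosomes, CPA4 (0.94), a carboxypeptidase, SIPA1L2 (0.94), ACTN1 (0.94), an actin cross-linker, and RER1 (0.94). CPA4 averaged 9.19 with miR-16 and 9.44 with miR-195, against 6.54 in control lysates. Over the same 9 means the correlation with IL6 was 0.88 for CXCL8, 0.81 for PTGS2, 0.62 for LIF, -0.26 for CXCL1 and -0.43 for CXCL2. With 9 points these values describe likeness only.

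Other genes of the same pathways were read from fixed lists in the lysate. Of 15 tested genes of IL6 and LIF reception and signalling, 1 was called higher with miR-16 (9.56% of all genes were) and none with miR-195 (6.82%), and none lower (7.45% and 7.22%). The medians were 0.00 with miR-16 and 0.10 with miR-195, against 0.05 and 0.01 over all genes. SOCS3, a feedback inhibitor of cytokine receptors, was at 10.24 ± 0.37 with miR-16, against 9.70 ± 0.21 in control lysates (SD, n = 3, log2 change 0.53, adjusted p = 0.0395). With miR-103 and miR-107 SOCS3 (0.58 with miR-103, 0.61 with miR-107) and STAT3 (0.50 with miR-103, 0.57 with miR-107), the transcription factor of this pathway, were called higher. STAT3 was also called with miR-107-mut2 (0.52) and with miR-107-mut1 (0.61, adjusted p = 0.0243, limma). IL6ST, which encodes gp130, was called with neither miR-16 nor miR-195. IL6R, the IL6 receptor, was lower with miR-16 and miR-195 than with miR-103 and miR-107 (-0.54 ± 0.15, adjusted p = 0.0198, limma), as were 3.57% of all genes. It was called against the control with none of these 4 RNAs and was lower with miR-320 (-0.76, adjusted p = 0.0485). None of the 3 tested cytokines of the IL6 family other than IL6 and LIF was called with miR-16 or miR-195.

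The shares of all genes beside the next 3 lists are 9.56% called higher and 7.45% lower with miR-16, and 6.82% and 7.22% with miR-195. Of 6 other chemokines tested, CXCL14 and CCL2 were called higher with miR-16 and miR-195 and none lower (medians of 0.21 and -0.01). Both were also called higher with miR-103, miR-107 and the 2 altered forms. CCL2, which draws monocytes, was higher by 0.64 ± 0.15 with miR-16 (adjusted p = 0.00399) and 0.72 ± 0.15 with miR-195 (adjusted p = 0.00154), and it rose by a like size with miR-103 (0.62), miR-107 (0.67), miR-107-mut1 (0.52), miR-107-mut2 (0.68) and miR-320 (0.55, adjusted p = 0.0459). CXCL14 was higher by 1.52 ± 0.15 with miR-16 and 1.54 ± 0.15 with miR-195, by 3.02 with miR-103, 3.28 with miR-107, 2.33 with miR-107-mut1 and 2.47 with miR-107-mut2. It ran against IL6 between the pairs, being lower with miR-16 and miR-195 than with miR-103 and miR-107 (-1.62 ± 0.10, adjusted p = 1.58e-09, limma). Among 7 tested genes of IL1 signalling, 2 were called higher and none lower with each of miR-16 and miR-195 (medians of 0.34 and 0.14). IL1R1, the IL1 receptor, was higher with miR-16 (1.42 ± 0.49, adjusted p = 0.0488), miR-195 (1.70 ± 0.49, adjusted p = 0.0202), miR-103 (2.17 ± 0.49, adjusted p = 0.00309), miR-107 (2.44 ± 0.49, adjusted p = 0.000947) and miR-107-mut2 (2.21 ± 0.49, adjusted p = 0.00282). MYD88, its adaptor, was called with miR-16 (0.46) and miR-103 (0.35), and lower with miR-107-mut1 (-1.12). IL1RAP, its co-receptor, was called with miR-195 (0.88) and miR-107-mut1 (1.04). Between the pairs IL1RAP was higher (0.65) and the kinase IRAK2 lower (-0.56) with miR-16 and miR-195 than with miR-103 and miR-107. Of 7 genes of the prostaglandin pathway 1 was called with miR-16 and with miR-195 (medians of 0.29 and 0.05). PTGER4, a receptor for prostaglandin E2, was higher with miR-16 (0.82 ± 0.13, adjusted p = 0.000110) and miR-195 (0.70 ± 0.13, adjusted p = 0.000589), by less with miR-107 (0.41), and lower with miR-107-mut1 (-0.43).

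In the lysate, 9.56% of all genes were called higher and 7.45% lower with miR-16, and 6.82% and 7.22% with miR-195. Of 20 tested genes of the NF-kB pathway none was called in the lysate with miR-16 or miR-195 (medians of -0.01 and -0.02, against 0.05 and 0.01 over all genes). Between the pairs, TNFAIP3, a feedback inhibitor of NF-kB, was lower with miR-16 and miR-195 than with miR-103 and miR-107 (-0.49), and the kinase subunits IKBKG (0.50) and IKBKB (0.30) were higher. Against the control IKBKG was called lower with miR-103 (-0.64, adjusted p = 0.0125) and miR-107 (-0.60, adjusted p = 0.0193), at 0.02 with miR-16 and -0.25 with miR-195 without a call. IKBKB was called with none of the 4 and lower with miR-107-mut2 (-0.38). MAP3K14, a kinase of the non-canonical branch, was called lower with miR-103 (-0.83), miR-107 (-0.81) and miR-107-mut2 (-0.81). SOD2, of the same list, was called higher with miR-107 (0.93, adjusted p = 0.0267, limma). In the IP TNFAIP3 was called lower with miR-16 (-1.18 ± 0.25, adjusted p = 0.0186) and miR-195 (-1.24 ± 0.25, adjusted p = 0.0183), the 1 of the 20 called there (1.12% of all genes were lower with miR-16 and 0.615% with miR-195). Of 6 tested CEBP and related regulators (medians of 0.22 with miR-16 and 0.13 with miR-195), only CEBPD was called, being higher with miR-16 (0.79 ± 0.14, adjusted p = 0.000449) and miR-195 (0.62 ± 0.14, adjusted p = 0.00458). It was also higher with that pair than with miR-103 and miR-107 (0.36), while ATF4, a stress-response factor, was lower (-0.47). Of 15 factors that bind or control AU-rich messages, 2 were called higher with miR-16 and 1 with miR-195 (9.56% and 6.82% of all genes were). None was lower (7.45% and 7.22% of all genes were), and the medians were -0.04 and 0.02. DUSP1, a phosphatase of MAP kinases, was higher with miR-16 (1.08 ± 0.22, adjusted p = 0.00152) and miR-195 (0.93 ± 0.22, adjusted p = 0.00582), and at like size with miR-103 (0.92), miR-107 (0.95) and miR-15b* (0.73). MAPKAPK2, a kinase of the p38 pathway, was higher with miR-16 (0.44 ± 0.14, adjusted p = 0.0372) and miR-15b* (0.49). ZFP36L1, which promotes decay of AU-rich messages, was lower in the IP with miR-16 (-1.82 ± 0.33, adjusted p = 0.00666) and miR-195 (-1.77 ± 0.33, adjusted p = 0.0120). In the lysate it was lower with miR-16 and miR-195 than with miR-103 and miR-107 (-0.42 ± 0.07, adjusted p = 0.000321, limma), and KHSRP, another decay factor, was higher (0.23), having been called lower with miR-103 (-0.30).

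Of 6 other secreted mediators 2 were called higher with miR-16 (9.56% of all genes were) and 1 with miR-195 (6.82%). The medians were 0.13 and 0.12. IL32 was called higher with miR-16 (0.63 ± 0.19, adjusted p = 0.0229) and miR-195 (0.61 ± 0.19, adjusted p = 0.0306) and lower with miR-15b* (-0.72), and CSF1, a growth factor of macrophages, was called with miR-16 (0.62 ± 0.20, adjusted p = 0.0400). CSF1 was also higher (0.78) and TNF lower (-0.38) with miR-16 and miR-195 than with miR-103 and miR-107. Of 8 tested genes of the senescence-associated list, 4 were called higher and 1 lower with each of miR-16 and miR-195, against 9.56% higher and 7.45% lower of all genes with miR-16 and 6.82% and 7.22% with miR-195 (list medians of 0.84 and 0.90). HBEGF, IGFBP3, IGFBP5 and IGFBP7, which are secreted growth factors or binding proteins, were higher, by 0.80 to 1.33 with miR-16. LMNB1, a nuclear lamin, was lower by a log2 change of -1.66 ± 0.20 with miR-16 (adjusted p = 3.79e-06) and -1.35 ± 0.20 with miR-195 (adjusted p = 5.33e-05, limma). HBEGF, IGFBP5 and IGFBP7 were also called higher and LMNB1 lower with miR-103, miR-107 and miR-107-mut2. Of the 5 chemokine receptors on the array only ACKR1 was tested, and it was called lower with miR-195 (-0.47 ± 0.16, adjusted p = 0.0445) and higher with miR-107 (0.56 ± 0.16, adjusted p = 0.0155). CXCR1 and CXCR2, the receptors of the chemokines above, were below the filter on low values.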

How the data were processed

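The arrays were Affymetrix Human Gene 1.0 ST, 27 for total lysate RNA of H4 cells and 27 for RNA from the anti-Argonaute IP. Per the submitters' processing notes, the deposited log2 values are RMA output of Expression Console 1.1. The log base was read from the range of the values, so every fold rests on it. Array means differ between the fractions as if each had been normalized by itself. Background probes were not used here, and 3 arrays a group limit the precision.

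Gene names came from the platform annotation: of 33297 probe sets, 19460 carried a single symbol, 1754 more than 1 and 12083 no symbol. Only the first kind was used (19429 symbols updated by gene ID, 31 kept), and for 769 genes with more than 1 such probe set that of highest mean stood for the gene. The lowest 40% of 18417 genes by mean over all arrays were left out, and 11050 were tested. Each fraction was fitted by itself in limma 3.58.1 (R 4.3.3) with lmFit and eBayes over its 9 groups, and p-values were adjusted by Benjamini-Hochberg over all genes tested. Interactions and the control IP against the control lysate used all 54 arrays. Errors are SE for changes and SD for levels.

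Arrays of the same replicate number deviated together from their group means, with a mean correlation of 0.31 for lysates and 0.27 for the IP, with 79 and 84 of 108 pairs above 0.1, and at -0.14 and -0.13 between other numbers. Between the IP and lysate of the same transfection and number the mean was 0.08, with 11 of 27 pairs above 0.1. The main fits have no block, since not every pair was above 0.1, although most pairs of the same number in a fraction were. The main interactions thus treat the IP and lysate of one number as independent, although their IL6 deviations correlated at 0.89. Fits with the block are therefore given beside them. The 7 genes and all lists were chosen with earlier results of these data known. List genes named are those called with miR-16, with miR-195 or between the pairs in the lysate, at most 5 a list, and others whose role the text needed. The fits were tested on simulated data. Sequences were copied from RefSeq tables, and figures were drawn with matplotlib 3.10.9 (Python 3.11.15). Alternatives were no filter or one of 60%, cyclic loess, a trended and robust eBayes, only the arrays compared, array quality weights, the replicate block, the mean of 3 controls as the reference, leaving out the miR-16 and miR-103 lysates that stood apart, or all 4 arrays least like their fraction, and leaving out each array.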

Additional observations from a re-analysis of the deposited data

Results flagged for a closer look

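For 4 results the change in the IP differed from the change in the lysate by an interaction test over all 54 arrays (limma). That test did not pair the fractions by replicate number. The paired fit made further calls, given above, that are not among these 4. The PTGS2 difference, IP change minus lysate change, was -1.46 with miR-195, -1.44 with miR-103 and -1.44 with miR-107, and the LIF difference was -2.50 with miR-107. The PTGS2 differences lay at -1.03, -0.89 and -0.69 after cyclic loess over both fractions and were then not called, while the LIF difference stayed called at -2.30 (adjusted p = 0.00347). The call of the miR-195 difference was lost without any 1 of 9 of its 12 arrays, that of the miR-103 difference without any 1 of 6, and that of the miR-107 difference without control lysate replicate 2 (-1.30, adjusted p = 0.0579). Groups of 3 arrays were too small to test single arrays against their own group.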

How the results depend on the processing

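Of 3180 alternative values for the genes, 2836 kept their direction and side of the threshold, 103 lost a call, 55 gained one, 181 that were called in neither fit had the other sign and 5 called values changed sign. The 5 were the control IP against the control lysate after cyclic loess, at 2.83 for IL6, 1.81 for LIF, 2.94 for CXCL1, 1.76 for CXCL2 and 0.0024 for CXCL8, where that method removes the offset between fractions by construction. Against the mean of 3 controls the IL6 change in the IP was 1.68 with miR-16 (adjusted p = 0.0966) and 1.84 with miR-195 (adjusted p = 0.0887) and neither was called. That mean includes the miR-320 group, where IL6 was itself high in the IP (mean 9.03, against 5.15 in the control). It therefore lowers these changes by construction. Without the 2 lysates named as unlike the rest, the IL6 difference between miR-16 with miR-195 and miR-103 with miR-107 was 1.66 in the lysate (adjusted p = 0.0849), and 1.66 (adjusted p = 0.0595) without the miR-15b* lysate as well. Leaving out single arrays, these values ranged from 2.29 to 3.13 (IL6, miR-16 IP), 2.57 to 3.25 (IL6, miR-195 IP) and 1.66 to 2.20 (IL6, pairs, lysate). The miR-320 change of IL6 in the IP ranged from 2.93 to 4.37. The cause of the shifts when arrays were left out was not tested. With the replicate block 0 of 210 results lost a call, 12 gained one and 0 changed sign, PTGS2 with miR-16 in the IP among them (0.90, adjusted p = 0.0153). Counts of all genes called moved by more than 1.5 times, to between 616 and 7376 from 1879 with miR-16 in the lysate, 1030 and 5963 from 1552 with miR-195, 16 and 537 from 74 with miR-195 in the IP, 19 and 722 from 139 with miR-16 in the IP, 148 and 466 from 244 with miR-320 in the IP, and 1182 and 5589 from 1906 with miR-103 and 1210 and 5144 from 1642 with miR-107 in the lysate. For miR-15b* they ran from 50 to 5236 around 833 in the lysate, from 0 to 1407 around 24 in the IP and from 18 to 1824 around 55 in the interaction, and the highest IP and interaction counts came without miR-15b* IP replicate 3. With miR-320 in the lysate they ran from 139 to 2367 around 327, with miR-107-mut1 from 576 to 4076 around 969 and with miR-107-mut2 from 1032 to 5162 around 1526. In the IP they ran from 46 to 1263 around 224 with miR-103, 92 to 1950 around 423 with miR-107, 18 to 695 around 82 with miR-107-mut1 and 6 to 184 around 38 with miR-107-mut2, and without control IP replicate 3 those with miR-103, miR-107, miR-107-mut2, miR-16 and miR-195 were lowest. Between the pairs they were 670 to 5914 from 1109 in the lysate and 26 to 102 from 42 in the IP. The highest of the other counts came from cyclic loess between the pairs in the IP, the replicate block with miR-107 in the IP and otherwise from array quality weights, whose estimation stopped before convergence in 2 of 2 fits. Another probe set could not be tried, since each of the 7 genes has 1. The interactions and the control IP against lysate without a filter on low values, and the fits without the arrays least like their fraction, were added after seeing the data.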
